A study of Homo sapiens with 5 samples.

Results

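The genes described here are 9 genes of the Notch signalling pathway: the Delta-like ligands DLL1, DLL3 and DLL4, the HES and HEY transcription factors HES1, HES4, HEY1, HEY2 and HEYL, and the Deltex gene DTX2. They were selected on measured values, the differences between antagomirs described below, and were found by symbol among the 18568 gene rows of the deposited table, where all 9 had a row. RNA had been sequenced from IMR90, a human lung fibroblast line with a limited lifespan. All cells had been infected with a retrovirus expressing RASV12, an always active RAS protein that drives fibroblasts into senescence. Selection used puromycin at 1.5 µg/ml for 3 days, and the cells were seeded on day 10. Antagomir transfection followed 24 hours after seeding, and RNA was taken 24 hours after transfection. An antagomir is a modified antisense oligonucleotide that blocks a microRNA. The control group received a control antagomir (2 libraries, with the column letters B and C) and the other group an antagomir against miR-146a (3 libraries, with the letters A, B and C). All 5 libraries carry RASV12, so growing cells are not part of the comparison, and the labels do not say whether the libraries came from separate cultures.

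Delta-like proteins sit on the surface of one cell and bind Notch receptors on its neighbour. The receptor is then cut by an ADAM protease and by gamma-secretase, and its intracellular part enters the nucleus, joins the DNA-binding protein RBPJ and switches on target genes, of which the HES and HEY repressors are the best known. DLL1 and DLL4 activate receptors of neighbouring cells, DLL4 being best known from sprouting blood vessels, whereas DLL3 stays largely inside the cell and dampens signalling. In fibroblasts undergoing RAS-induced senescence, NOTCH1 activity is known to shift the secreted factors between a TGF-beta-type and an interleukin-1-type set. The 4 NOTCH receptor genes were not analysed here.

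The promoter sequences that hold or lack the RBPJ core, and the microRNA, are shown first. Of the 9 genes, 6 matched the RefSeq promoter table (GRCh38.p14, 250 bases before to 50 after the gene start): HES1, HES4, HEY2, HEYL, DTX2 and DLL4. The core of the RBPJ site was searched as TGGGAA on both strands, which occurred in 24.0% of 35097 promoters of the same length, and at least 2 times in 3.80%. The HES1 promoter holds 2 matches on its own strand, starting at positions −84 and −70 from the gene start. HES4 holds 1, starting at position −76, HEY2 and HEYL hold 2 each, facing opposite ways, DTX2 holds 1 on the opposite strand, and the DLL4 window holds none. The HES1, HES4 and DLL4 windows are printed whole and the HEY2 and HEYL matches with 20 bases on either side, because these show the targets beside a ligand gene. Capitals mark TGGGAA or its reverse complement TTCCCA, and all lines run 5′ to 3′ on the strand of the gene.
HES1 (chr3:194135898-194136197, plus strand): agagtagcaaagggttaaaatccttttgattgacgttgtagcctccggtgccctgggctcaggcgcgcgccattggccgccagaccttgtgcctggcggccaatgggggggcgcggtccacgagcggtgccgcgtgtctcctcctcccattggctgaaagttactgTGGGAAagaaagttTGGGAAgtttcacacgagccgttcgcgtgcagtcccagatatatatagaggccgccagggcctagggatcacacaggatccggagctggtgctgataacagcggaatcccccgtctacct
HES4 (chr1:1000048-1000347, minus strand): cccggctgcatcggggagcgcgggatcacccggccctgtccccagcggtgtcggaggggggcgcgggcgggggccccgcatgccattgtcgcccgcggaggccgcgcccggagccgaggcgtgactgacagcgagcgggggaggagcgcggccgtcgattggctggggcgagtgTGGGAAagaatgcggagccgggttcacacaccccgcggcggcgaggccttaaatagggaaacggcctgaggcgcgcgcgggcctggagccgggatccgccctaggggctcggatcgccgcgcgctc
DLL4 (chr15:40929090-40929389, plus strand): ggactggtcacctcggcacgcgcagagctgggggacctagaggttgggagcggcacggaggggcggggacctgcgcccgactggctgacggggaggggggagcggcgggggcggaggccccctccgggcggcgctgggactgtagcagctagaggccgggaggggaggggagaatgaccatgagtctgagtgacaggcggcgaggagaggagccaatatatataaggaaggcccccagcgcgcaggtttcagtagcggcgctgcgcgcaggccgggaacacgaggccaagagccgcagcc
HEY2, the upstream match (chr6:125749399-125749444, plus strand): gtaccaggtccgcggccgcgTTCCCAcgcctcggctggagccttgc
HEY2, the match at the gene start (chr6:125749609-125749654, plus strand): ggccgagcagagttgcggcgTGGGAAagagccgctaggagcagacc
HEYL, the upstream match (chr1:39639796-39639841, minus strand): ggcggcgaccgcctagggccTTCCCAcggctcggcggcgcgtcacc
HEYL, the downstream match (chr1:39639717-39639762, minus strand): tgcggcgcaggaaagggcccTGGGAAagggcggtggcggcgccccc
The N-box, a site that HES proteins bind, was searched as CACNAG on both strands. It occurred 4 times in the HES1 window and 1 time in that of DLL4. Of all promoters 38.0% held it, and 8.94% held it at least 2 times. The E-box CACGTG occurred in none of the 6 windows and in 7.25% of all promoters. A match says only that these letters are present, and other forms of the RBPJ site were not searched.

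**Figure D1:**
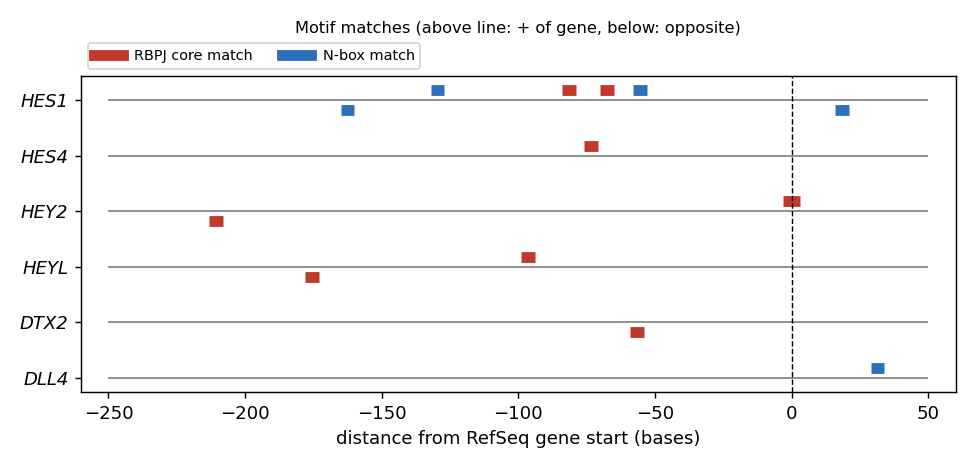
Positions of the RBPJ core (red) and N-box (blue) matches in the promoter windows of 6 genes, in bases from the RefSeq gene start (dashed line). Matches on the strand of the gene are drawn above each line and those on the opposite strand below it. HES1 carries 2 RBPJ core matches and 4 N-box matches, and DLL4 carries 1 N-box match and no RBPJ core match.

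The mature microRNA that the antagomir targets is shown next, with its seed, bases 2 to 8, in capitals, as given by RefSeq (chr5:160485372-160485393, plus strand, GRCh38.p14).
miR-146a-5p: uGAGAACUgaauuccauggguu

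The 5 libraries held 8430859 to 9283950 reads over the rows used here, which are part of each library. The libraries marked C stood apart. The principal component with 53.4% of the variance separated both C libraries from the other 3, and the next, with 29.3%, separated the antagomirs, so values are also given within a letter. No source used here says what the letters stand for. The test covered 6317 genes, those whose normalized read count reached 10 in 2 or more libraries. Of the 9 genes 7 met this, and HEY2 and HEYL were too low. The 9 genes were chosen with the antagomir comparison known, so their differences are descriptions and carry no test. Differences are on the log2(value + 1) scale, anti-miR-146a minus control, with the SE of the model fitted over all genes.

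DLL4 (chromosome 15, 40929340 to 40939072, GRCh38) had the largest difference among the 7 tested members. It had 833 and 842 normalized reads in control B and control C, against 2045, 1954 and 1442 in the A, B and C anti-miR-146a libraries. All 3 anti-miR-146a libraries lay above both controls, which were close to each other, and library C was the lowest of the 3. The means were 838 ± 6.47 (SD, n = 2) and 1814 ± 325 (SD, n = 3), a 2.16-fold difference (log2 difference 1.10, SE 0.17). Within letters it was 1.23 for B against B and 0.78 for C against C, and across 15 alternative settings and the main one it ran from 1.00 to 1.26. In the authors' deposited table DLL4 has a fold change of 2.17 and was the 1 member of 7 with an adjusted p under 0.05, where 2.57% of the 5593 rows with such a value have one, 1.7% as higher and 0.876% as lower. Fewer cells that express a gene and less RNA per cell cannot be told apart in bulk RNA, here or below.

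The other ligand genes were far lower and lay on the same side. DLL1 (chromosome 6, 170282206 to 170306565) had 29.6 and 25.2 normalized reads in the controls, against 41.5, 42.0 and 55.6 with anti-miR-146a, with library C the highest. Its means were 27.4 ± 3.11 (SD, n = 2) and 46.4 ± 8.01 (SD, n = 3), 1.69-fold apart (log2 difference 0.73, SE 0.25). Its difference was 0.49 within letter B and 1.11 within letter C, the reverse of the order seen for DLL4. DLL1 overlaps FAM120B on the opposite strand and the long non-coding gene AL078605.1 on its own. No source used here gives the strand setting of the read counting, so some reads could belong to these. FAM120B had 854 and 1124 normalized reads in control B and control C, against 1125, 1061 and 1327 in the A, B and C anti-miR-146a libraries.

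DLL3 (chromosome 19, 39498895 to 39508481) had 12.4 and 13.1 normalized reads in the controls, against 34.0, 17.3 and 21.2 with anti-miR-146a. The groups did not overlap, and library A was far above the other two. The means were 12.7 ± 0.461 (SD, n = 2) and 24.2 ± 8.70 (SD, n = 3), 1.9-fold apart (log2 difference 0.82, SE 0.37), from 13 and 14 reads in the controls, against 36, 19 and 21 in the others. Within letters the difference was 0.45 for B and 0.66 for C. Summed over the 3 genes, Delta-like reads were 875 and 881 in control B and control C, against 2120, 2013 and 1519 in the A, B and C anti-miR-146a libraries. DLL4 made up 94.9% to 97.1% of this sum in every library.

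**Figure D2:**
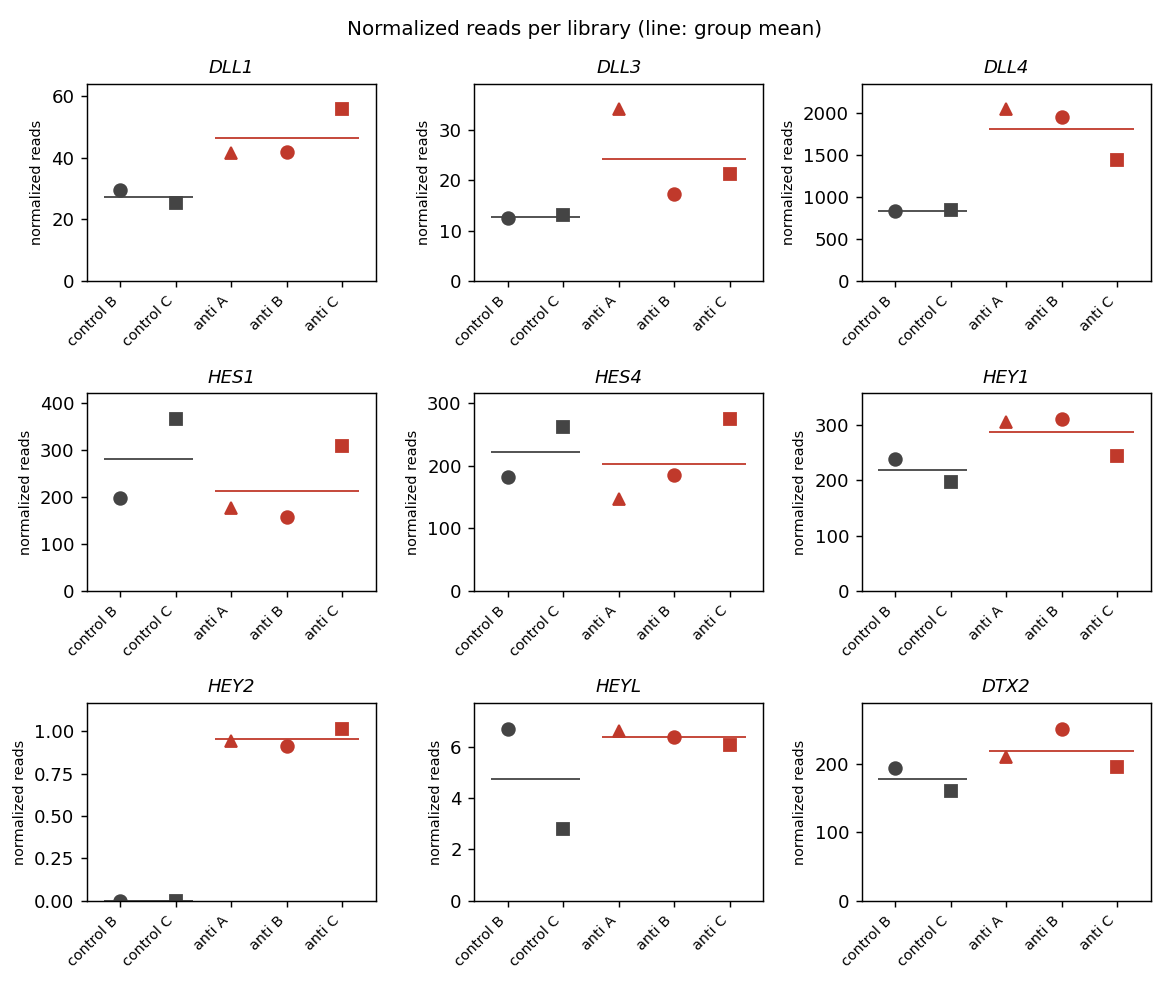
Normalized reads (vertical axis, from 0, a different scale in each panel) of the 9 genes in the 5 libraries. Dark points are controls, red points anti-miR-146a libraries, the marker shape gives the letter and lines are group means. DLL4 lies at 833 and 842 in the controls and at 1442 to 2045 with anti-miR-146a, while HES1 and HES4 are highest in the C library of each group.

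HES1 (chromosome 3, 194136145 to 194138732), the archetypal Notch target, did not follow DLL4. It had 198 and 365 normalized reads in control B and control C, against 176, 156 and 308 in the A, B and C anti-miR-146a libraries. The groups overlapped, and the C library was the highest of each group, 1.85-fold above control B among the controls and 1.85-fold above the mean of A and B with anti-miR-146a. The log2 difference between antagomirs was −0.40 (SE 0.37), with means of 281 ± 118 (SD, n = 2) and 213 ± 82.4 (SD, n = 3). It was −0.34 within letter B and −0.25 within letter C. With 1 library left out it ran from −0.84 without control B to 0.04 without control C, and it was −0.69 without anti-miR-146a C and −0.21 without anti-miR-146a B.

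HES4 (chromosome 1, 998962 to 1000172), a repressor of the same family, shared this pattern. It had 182 and 261 normalized reads in the controls, against 146.3, 185.3 and 274.1 with anti-miR-146a. The groups overlapped, and the C library was 1.43-fold above control B and 1.65-fold above the mean of anti-miR-146a A and B. The log2 difference between antagomirs was −0.16 (SE 0.30). It was 0.02 within letter B and 0.07 within letter C, so its sign turned within letters, as it did without control C (0.10), without anti-miR-146a A (0.05) and with the letter as a block (0.05). Leaving out control B gave −0.42, and leaving out the C library of anti-miR-146a gave −0.40.

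HEY1 (chromosome 8, 79764010 to 79767863), a Notch target of the HEY branch, had 239 and 198 normalized reads in control B and control C, against 306, 310 and 244 in the A, B and C anti-miR-146a libraries. Every anti-miR-146a library lay above both controls, with library C, at 244, only just above control B, at 239. The means were 218 ± 28.9 (SD, n = 2) and 287 ± 37.2 (SD, n = 3), 1.31-fold apart (log2 difference 0.39, SE 0.17), and the difference was 0.38 within letter B, 0.30 within letter C and 0.26 without control C. Unlike HES1 and HES4, HEY1 was lowest in the C library of each group.

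HEYL and HEY2 were barely detected. HEYL (chromosome 1, 39624153 to 39639945) had 7 and 3 reads in control B and control C, against 7, 7 and 6 in the A, B and C anti-miR-146a libraries. Its log2 difference of 0.44 rested on control C, since it was −0.06 without that library. HEY2 (chromosome 6, 125747664 to 125761269) had 0 reads in both controls and 1 read in each of the 3 anti-miR-146a libraries. Both groups are below the 3 reads that a count of 0 allows, so no fold is given and a difference was not detectable at this depth. Such limits cover counting error only.

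DTX2 (chromosome 7, 76461676 to 76505995) encodes a ubiquitin ligase of the Deltex family, whose members bind the intracellular part of Notch. It had 195 and 160 normalized reads in the controls, against 211, 251 and 195 with anti-miR-146a. The lowest anti-miR-146a library, C at 195.2, and the highest control, B at 194.7, were nearly equal. The means were 178 ± 24.2 (SD, n = 2) and 219 ± 28.8 (SD, n = 3), 1.23-fold apart (log2 difference 0.30, SE 0.18), with 0.36 within letter B and 0.28 within letter C. It was 0.16 without control C and 0.20 without anti-miR-146a B. The partial copy DTX2P1 had at most 2 reads in any library, and no source used here says how reads shared by both were counted. DTX2, HEY2 and HEYL each overlap a non-coding gene on the opposite strand.

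Of the 7 tested genes, 5 had groups that did not overlap with anti-miR-146a higher, namely DLL1, DLL3, DLL4, HEY1 and DTX2, and HES1 and HES4 overlapped. Over all 6317 tested genes 16.5% were higher without overlap and 13.5% lower. The median log2 difference was 0.39 over the 7 genes and 0.005 over all tested genes, but nothing is read from this, because the comparison was known when the genes were chosen. The ligand genes, at 0.73 to 1.10, lay above the 90th percentile of all tested genes (0.46), and HEY1, DTX2 and HES4 lay between the 10th and the 90th. HES1, at −0.40, lay just under the 10th percentile (−0.36). For the same reason these places are descriptions only.

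**Figure D3:**
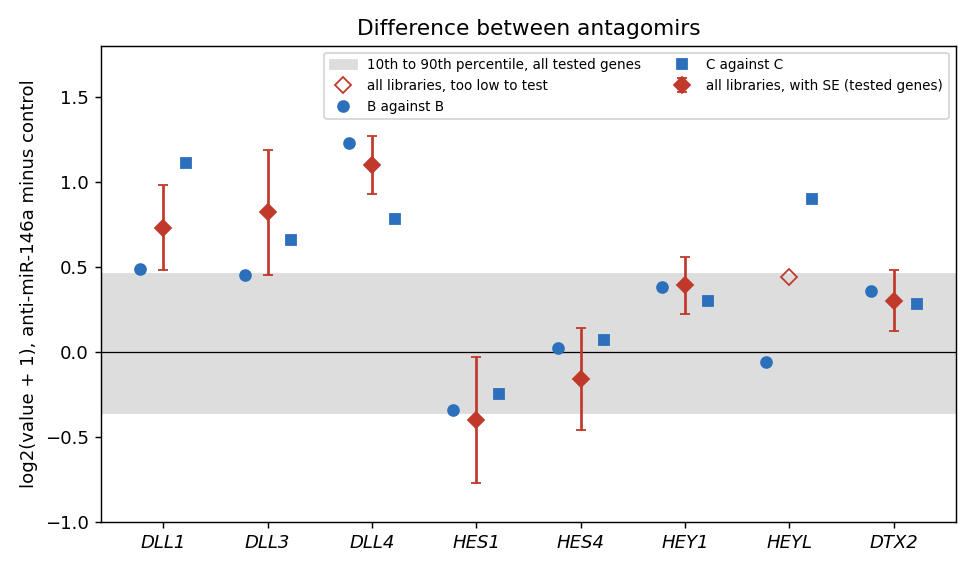
Difference between antagomirs in log2(value + 1), anti-miR-146a minus control, for the 8 genes with more than 3 reads in a library. Red diamonds are all libraries, with the SE for tested genes, blue circles are library B against control B, blue squares library C against control C, and the grey band spans the 10th to 90th percentile of all tested genes (−0.36 to 0.46). The 3 ligand genes lie above the band, HES1 lies just below it at −0.40 over all libraries, and HES4 lies at 0.02 and 0.07 within letters.

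Levels were compared between genes per kilobase of exon in GENCODE 29. In the controls the highest was HES4 at 198 normalized reads per kilobase, followed by DLL4 at 176, HES1 at 136, HEY1 at 67.5, DTX2 at 35.2, DLL1 at 8.49, DLL3 at 4.86 and HEYL at 1.29, with HEY2 at 0. The values of HES4 (163 and 234 in control B and control C), DLL4 (175 and 177) and HES1 (95.8 and 177) overlapped across libraries. Within a library HES4 lay above HES1 in both controls. The place of DLL4 was not fixed, above HES4 in control B and below it in control C. With anti-miR-146a the highest was DLL4 at 381, with libraries of 303 to 429, above HES4 at 181, with libraries of 131 to 245. HES1 at 103 overlapped both HES4 and HEY1 at 88.7 across these libraries, but lay below HES4 within each of them. The remaining order was that of the controls, with DTX2 at 43.4, DLL1 at 14.4, DLL3 at 9.24, HEYL at 1.74 and HEY2 at 0.349.

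The members also differed in how they lay in the C libraries. HES1 and HES4 were higher in the C library of both groups, by 0.88 and 0.52 in control C over control B and by 0.89 and 0.73 in anti-miR-146a C over A and B (log2). HEY1 was lower there, with differences of −0.27 and −0.34, and so was DTX2, with −0.28 and −0.23. Of all tested genes 33.8% had both C libraries above the others of their antagomir and 29.4% had both below. The ligand genes had no common direction: DLL4 differed by 0.02 between the controls and by −0.47 between anti-miR-146a C and the mean of A and B, and DLL1 by −0.22 and 0.41.

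**Figure D4:**
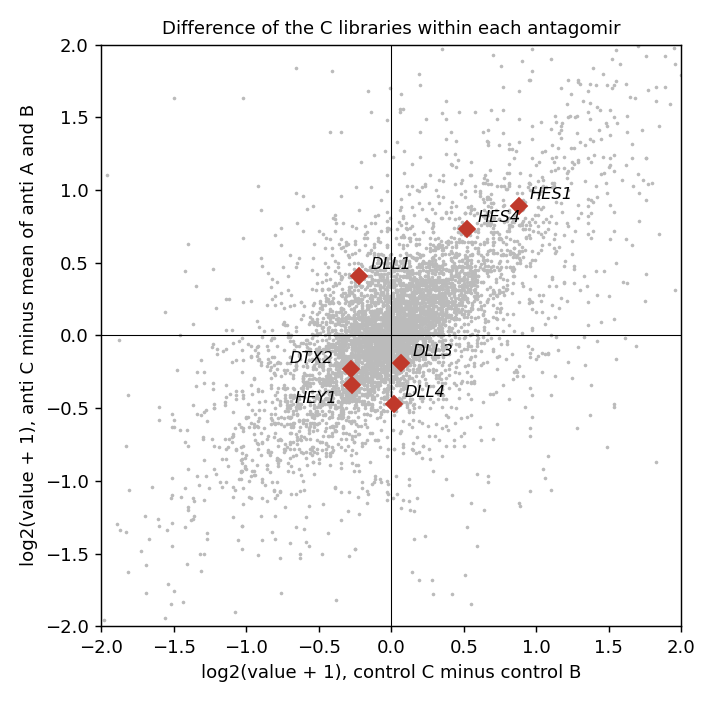
Difference of the C library from the others of its antagomir in log2(value + 1), for controls (horizontal axis) and for anti-miR-146a (vertical axis). Grey points are tested genes, of which 105 lie outside the axes, and red diamonds the 7 tested members. HES1 (0.88 and 0.89) and HES4 (0.52 and 0.73) lie in the upper right, HEY1 and DTX2 in the lower left, and DLL4 (0.02 and −0.47) below the centre.

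The other genes of the pathway were read from 11 lists by role, with 115 genes, of which 63 had a row and 56 were tested. None passed in limma (Benjamini-Hochberg adjusted p under 0.05 over all tested genes), and none of the 6317 genes did (0%). Of the 56, 5 had an unadjusted p under 0.05, where 11.3% of all tested genes did. Called by edgeR and DESeq2 were 0 of the 56, where DESeq2 called 0.286% (0.208% higher and 0.0779% lower). That share is over all 15396 genes with any read, a wider set than the 6317. The median log2 difference was −0.01, with 26 genes higher and 30 lower on average. Groups did not overlap for 4 of the 56 as higher and 10 as lower, where 16.5% and 13.5% of all tested genes did so.

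Of the 5 tested proteases and gamma-secretase genes, 4 had groups that did not overlap, 2 as higher and 2 as lower, and none passed. Over all tested genes 16.5% were higher without overlap and 13.5% lower, and so few genes carry no comparison with these shares. ADAM10, which makes the outer cut, had a log2 difference of −0.22 (SE 0.12, adjusted p 0.53 in limma) and was lower without overlap. FURIN, which processes the receptor on its way to the surface, had 0.11 (SE 0.10) and was higher without overlap. The gamma-secretase genes APH1A and APH1B, added after their values were seen, had 0.14 (SE 0.10) and −0.28 (SE 0.12), also without overlap. In the nuclear complex the acetyltransferases EP300 and CREBBP had 0.07 (SE 0.10) and 0.10 (SE 0.13). The corepressors HDAC2 and AES, now TLE5, had −0.21 (SE 0.11) and −0.06 (SE 0.11), HDAC2 without overlap of the groups. Among regulators of the receptor, AAK1, a kinase of endocytosis, had 0.25 (SE 0.10, adjusted p 0.419 in limma) and DVL3, a Dishevelled protein, 0.30 (SE 0.11, adjusted p 0.389), both without overlap. EPN1 and EPN2, epsins that pull ligands into the sending cell, had 0.10 (SE 0.10) and −0.01 (SE 0.18). Of the other ligands, 3 were tested, all with overlapping groups. DNER, a Delta-like and EGF-repeat protein, had 231 and 297 normalized reads in the controls, against 221, 173 and 232 with anti-miR-146a. EGFL7 had 88.8 and 118 against 81.2, 82.2 and 117, and DLK1 11.45 and 9.33 against 14.2, 11.9 and 7.08.

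Of the remaining HES genes, HES7 had 96.4 and 123 normalized reads in the controls, against 113, 112 and 125 with anti-miR-146a, and HES6 46.8 and 28.0 against 55.7, 34.7 and 38.4, both overlapping. Among genes known as Notch targets in other tissues, CCND1 (cyclin D1) and the adhesion receptor CD44 had log2 differences of 0.06 (SE 0.23) and −0.10 (SE 0.20). The cell cycle inhibitors CDKN1B and CDKN1C, which HES proteins can repress, had 0.00 (SE 0.25) and 0.06 (SE 0.28). Of the secretory genes tied to NOTCH1 in senescence, CXCL8 had −0.16 (SE 0.17) and IL1B −0.07 (SE 0.50). CXCL8 was lower without overlap, but only just, with anti-miR-146a C at 125152 and control C at 126185. IL1B followed the C libraries, with 21508 and 48996 normalized reads in control B and control C, against 25497, 21335 and 54881 in the A, B and C anti-miR-146a libraries.

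With the C libraries as a term of the model, 10 of the 56 pathway genes passed in limma, 6 higher and 4 lower, where 8.64% and 6.79% of all tested genes did (15.4% in all). The count is close to the share over all genes. With the column letter as a block 3 passed as higher and 3 as lower, where 5.65% and 4.42% of all tested genes did (10.1% in all). The 10 genes are named after their values were seen. The higher ones were the Deltex gene DTX4 (log2 difference 0.48, adjusted p 0.0082 in limma), AAK1, DVL2 and DVL3, CDKN1A (p21) and the collagen gene COL5A1. Of these AAK1, DVL2 and DVL3 did not pass with the block (adjusted p 0.247, 0.14 and 0.0506 in limma). The lower ones were GXYLT1, FBXW7, the corepressor CIR1 and APH1B. GXYLT1 adds xylose to Notch receptors (−0.62, adjusted p 0.00619 in limma). The ligase of FBXW7 marks the active receptor for destruction (−0.41, adjusted p 0.00774 in limma). APH1B did not pass with the block (adjusted p 0.155 in limma). Within letters B and C the differences were −0.93 and −0.06 for CIR1, −1.01 and −0.27 for GXYLT1, and −0.36 and −0.26 for APH1B. FBXW7 had 1290 and 1306 normalized reads in the controls, against 997, 897 and 1019 with anti-miR-146a, with no overlap, and its log2 difference was −0.52 within letter B and −0.36 within letter C. In the fit without that term its adjusted p was 0.345, and in the authors' deposited table it is 0.0025.

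**Figure D5:**
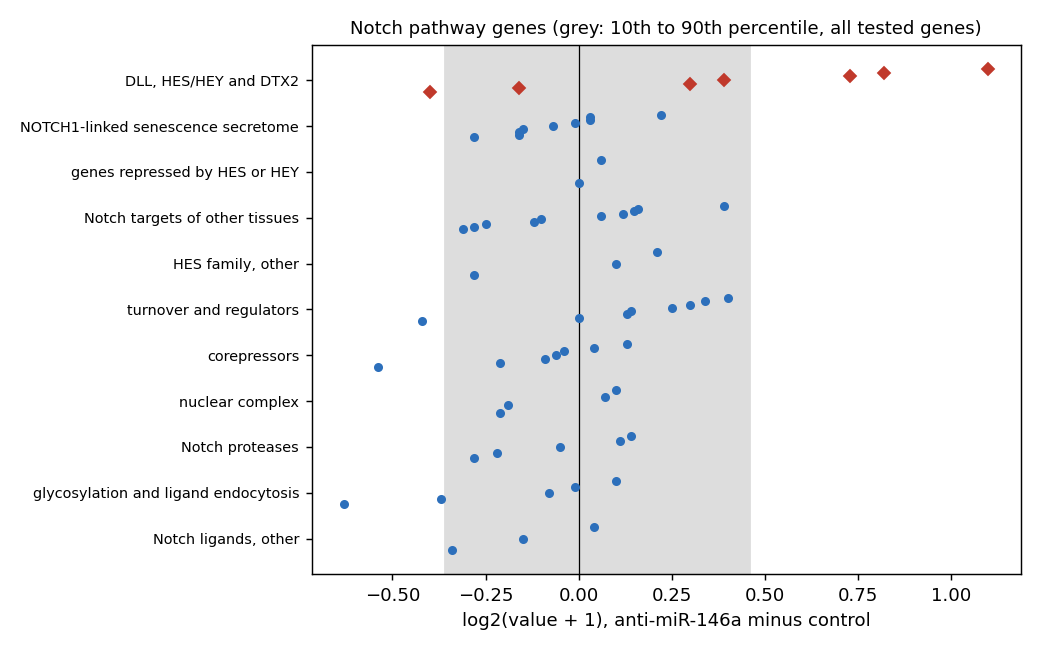
Difference between antagomirs in log2(value + 1), anti-miR-146a minus control (horizontal axis), of each tested gene by role (blue) and of the 7 tested members (red). The grey band spans the 10th to 90th percentile of all tested genes (−0.36 to 0.46). No blue point lies above the band, and GXYLT1, CIR1, FBXW7 and GXYLT2 lie below it.

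The genes with the profile most like that of DLL4 were found by the root mean square difference of centred log2(value + 1) over the 5 libraries, among genes with a mean of at least 20. They were ANXA2R (0.10), CTD-2619J13.19 (0.104), ELOA-AS1 (0.107), CTD-3193O13.12 (0.121) and DPH6-AS1 (0.121), where the median over 5495 genes was 0.599. ANXA2R had 23.9 and 22.4 normalized reads in the controls, against 56.6, 59.3 and 47.5 with anti-miR-146a, and the other 4 are long non-coding genes. For HES1 they were DUSP5 (0.030), CDH11 (0.036), CTC-471J1.2 (0.053), GABRA2 (0.053) and HDAC9 (0.066), with a median of 0.495. DUSP5, a phosphatase of ERK, had 5395 and 10158 in control B and control C, against 4607, 4171 and 8343 in the A, B and C anti-miR-146a libraries.

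The sum of the fibroblast markers was high in all libraries, at 172946 to 243487 normalized reads over 9 of 13 listed genes. Among these DPT was barely detected, at 0.944 in anti-miR-146a A and 0 in every other library. Endothelial markers, of interest because DLL4 is best known from vessels, summed to 337 and 915 in control B and control C, against 301, 250 and 835 in the A, B and C anti-miR-146a libraries, over 9 of 14 listed. This sum was led by ESM1 and FLT1 and followed the C libraries. CLDN5 also followed them, with 21.95 and 48.51 in the controls, against 29.26, 19.17 and 56.64 with anti-miR-146a. So did ERG, with 13.36 and 24.26 against 13.22, 10.04 and 29.33, and APLN, at 1.909 to 10.26. ESAM did not, with 19.09 and 16.79 against 30.21, 25.56 and 16.18. Nor did the defining gene CDH5, with 5.727 and 5.597 in the controls, against 4.72, 8.22 and 9.10 with anti-miR-146a. EMCN and ECSCR were barely detected. Epithelial markers summed to 59.7 to 105 over 7 of 11 listed. CLDN4 led this sum, with 55.36 and 43.85 in the controls, against 66.08, 70.28 and 43.5 with anti-miR-146a. ELF3 had 35.32 and 22.39 against 21.71, 17.34 and 6.07, lower without overlap, and did not pass in limma (adjusted p 0.535). EPCAM (means 8.96 and 5.4) and CLDN7 (7.97 and 3.49) were also lower without overlap, but too low to test. CDH1 was at 0 in 4 libraries, and CLDN3 and ESRP1 were barely detected. Leukocyte markers summed to 57.3 and 56.0 in the controls, against 77.4, 77.6 and 64.7 with anti-miR-146a over 8 of 10 listed, moving with the antagomir as DLL4 did. CD68 made up most of that difference, with 5.73 and 9.33 against 17.9, 24.6 and 20.2, and CD3E was at 0 in all libraries. The part of these cells in the ligand values was not tested.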

How the data were processed

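Per the labels' protocols, ribosomal RNA was removed from total RNA with RiboErase before KAPA HyperPrep library preparation. The submitters' processing notes name Trimmomatic 0.35, STAR 2.5.1b, DESeq2 1.22.2 and the build GRCh38. For the counter, strand setting and annotation, the sources used here give nothing. The authors deposited, per gene and library, a signal that is the read count divided by a size factor, and also their fold change (a linear ratio), p-value and adjusted p-value. All values (100%) are whole multiples of their column's smallest step within 1e-06, so whole reads were recovered. Column names give the group, but do not say which GEO replicate a column is.

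Differences were fitted with limma 3.58.1 (R 4.3.3, trend option) on log2(value + 1), which understates the change of low genes, with the antagomir as the only term, for genes of at least 10 in at least 2 libraries. The threshold was a Benjamini-Hochberg adjusted p under 0.05. With 2 and 3 libraries, p-values measure the spread between these libraries only, which may be technical. Alternatives were edgeR 4.0.16 and DESeq2 1.42.0 on the reads, other scaling, filters and pseudocounts, libraries left out, and terms for the letter or the C libraries. Named genes were all 9 members, the 2 most abundant tested genes of each pathway list unless one passed, and the 5 profiles closest to DLL4 and to HES1. The members, lists and tests were chosen with earlier results of these data known. Fits were tested on simulated counts that held no difference of the C libraries, so that check does not cover it and nothing is read from it. Promoters and the microRNA came from RefSeq (GRCh38.p14), exon lengths from GENCODE 29. One sequence result is not reported here. DLL4 has another version and slightly other bounds there than in the deposited table, and the bounds printed for the genes are those deposited.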

Additional observations from a re-analysis of the deposited data

How the results depend on the processing

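The 7 tested members kept their direction under all 15 alternatives except HES1, higher without control C (0.04), and HES4, higher without control C (0.10), without anti-miR-146a A (0.05) and with the replicate block (0.05). Between 5 and 7 members were higher with 1 library left out. HEYL, too low to test, was also lower without both C libraries (−0.03), and DLL1 was 0.48 there.

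The count of genes past the threshold was 0 in limma and with edgeR (715 and 706 at an unadjusted p under 0.05). It was 44 with DESeq2 (32 higher), 975 with the C libraries as a term (546 higher, 429 lower), 636 with the column letter as a replicate block (357 higher) and 1568 when both C libraries were left out, where the 1 control remaining is assumed to vary like the others. With 1 library left out it ran from 0 to 12, the 12 being without anti-miR-146a C. For pathway genes it was 10 with the C term, 6 with the block, 17 without both C libraries and 0 with any 1 library left out. Without both C libraries 6083 genes were tested, so the pathway count there has to be read beside the count over all of these. With 1 control remaining, no excess of pathway genes is read from either count. The letters are not stated to pair libraries. Deviations from group means correlated at 0.505 for the B pair and 0.661 for the C pair across genes. With 2 controls, the deviation of control B is that of control C with its sign turned, so the 2 correlations are not independent. Correlations between unlike letters are not given, and no pairing is read from these values.

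Of 20 named pathway genes, 10 changed sign under an alternative, none of which passed the threshold in the main model. With the C term, the block and without both C libraries, EPN2 was at 0.05, 0.07 and 0.05 and IL1B at 0.14, 0.08 and 0.12. CDKN1C was at −0.04 with the C term and −0.19 without both C libraries, AES at 0.01 with the block and HES6 at −0.09 without both C libraries. With 1 library left out the ranges were −0.21 to 0.18 for EPN2, −0.66 to 0.53 for IL1B, −0.33 to 0.46 for CDKN1C, −0.12 to 0.01 for AES, −0.15 to 0.57 for HES6, −0.08 to 0.27 for HES7, −0.21 to 0.32 for CCND1, −0.43 to 0.42 for CDKN1B, −0.36 to 0.05 for EGFL7 and −0.30 to 0.10 for CD44. The cause was not tested. No scaling moved the median of all genes by over 0.1. Depth limits HEY2, HEYL and DLL3, at 36 reads or fewer in every library.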
